A study of Mus musculus with 32 samples.

Results

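The data compared lungs of mouse pups kept in hyperoxia (raised oxygen) and harvested at postnatal day 3.5 (P3.5) with lungs of pups kept in hyperoxia and harvested at P2.5. This step of 1 day was covered by 8 of the 32 arrays of the series, 4 per age, each array from the lung of a separate pup. The same step between 4 P2.5 and 4 P3.5 lungs of pups kept in normoxia (room air) was set beside it. The pups were wild-type C57Bl/6J mice, assigned at random to either exposure on the day of birth, and per the labels their lungs were rinsed through the heart with PBS until white. All mouse miRNAs on the array entered, 1079 in all, of which 302 were tested because every array of either hyperoxia group, or of both, detected them.

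MicroRNAs (miRNAs) are short RNAs that pair with messenger RNAs, mainly through a seed at bases 2 to 8, and lower the output of these messengers. Hyperoxia of newborn mice is used to model the stunted formation of alveoli seen in bronchopulmonary dysplasia of preterm infants. Many miRNAs of the perinatal lung are made from a few long transcripts. The largest such group lies in the Dlk1-Dio3 region of chromosome 12, an imprinted region whose miRNAs are cut from non-coding RNAs of the maternal copy, are abundant in the embryo and the placenta, and decline as tissues mature.

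On the 16 arrays of P2.5 and P3.5, between 285 and 324 miRNAs were detected, and 0 spots were saturated. Both ages and both exposures lay on the same 2 slides, with 2 arrays of each group per slide. All P2.5 arrays were in slide row 1 and all P3.5 arrays in slide row 2, so within either step age and slide row cannot be told apart. The 4 hyperoxia arrays of P3.5 were the brighter ones before scaling, with 75th percentile signals of 1292 to 1694 intensity units against 886 to 1279 at P2.5. The part of this brightness in the results was not tested. Normoxia P3.5 replicate 9 stood apart. Its scaled level (log2) of miR-1a-3p, a muscle and heart miRNA, was 10.44 against 6.45 to 7.73 on the other 7 normoxia arrays. Normoxia values that it moved by more than 1.5 times are given with and without it. Whole lung was measured, so fewer cells of a type and less RNA per cell cannot be told apart.

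The sequences of the miRNAs on which the results turned are shown with the seed (bases 2 to 8) in capitals, 5′ to 3′, from RefSeq (GRCm38.p6). A sequence was matched for 237 of the 302 miRNAs tested and for 41 of the 46 past the threshold. The first set holds the Dlk1-Dio3 miRNAs with the largest falls, and miR-379-3p, which has the same seed as miR-411-3p. The 29 Dlk1-Dio3 miRNAs past the threshold carried 28 different seeds.
miR-376b-3p: aUCAUAGAggaacauccacuu
miR-495-3p: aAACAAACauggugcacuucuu
miR-154-3p: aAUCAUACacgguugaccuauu
miR-410-3p: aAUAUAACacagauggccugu
miR-411-3p: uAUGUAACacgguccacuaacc
miR-379-3p: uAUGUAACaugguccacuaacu
miR-409-3p: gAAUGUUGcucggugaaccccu
miR-541-5p: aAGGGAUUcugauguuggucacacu
miR-381-3p: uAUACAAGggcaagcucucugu
The second set holds the miRNAs with the seed of miR-34a-5p for which a sequence was matched. They are shown because miR-34a-5p was past the threshold while the others with this seed were not.
miR-34a-5p: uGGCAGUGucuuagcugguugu
miR-34b-5p: aGGCAGUGuaauuagcugauugu
miR-449a-5p: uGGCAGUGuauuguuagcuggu
The third set holds the pair of falling miRNAs of the X-linked miR-322 cluster beside miR-15a-5p and miR-16-5p. miR-322-5p has the seed of the latter, and miR-503-5p has another.
miR-322-5p: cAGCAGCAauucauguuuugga
miR-503-5p: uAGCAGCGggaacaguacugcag
miR-15a-5p: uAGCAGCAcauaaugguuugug
miR-16-5p: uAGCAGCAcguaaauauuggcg

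In the hyperoxia step 46 of 302 miRNAs (15.2%) passed the threshold of limma's Benjamini-Hochberg adjusted p at 0.05. Of these, 43 were lower at P3.5 (14.2% of those tested) and 3 were counted as higher (0.993%). Of these 3, miR-153-3p entered only through its detection at P3.5 and its levels lay under the dimmest signals well above background, so 2 rises remained among the miRNAs detected on all 8 arrays. Dlk1-Dio3 miRNAs made up 29 of the 43 that fell. The differences past the threshold ran in size from 0.29 to 1.19 on the log2 scale, and 1 of the 46 reached 2-fold. For 44 of the 46 the 4 arrays of P3.5 lay wholly apart from the 4 arrays of P2.5. Each of the 46 also went the same way on both slides, which for those 44 follows from that separation. Both counts rest on the arrays that made the call and are no separate evidence. With any 1 of the 8 arrays left out 31 of the 46 still passed, while 15, of which 6 are in the Dlk1-Dio3 region, were lost without at least 1 array. Over all miRNAs tested the arrays of both ages lay apart for 21.5%, with P3.5 lower in 17.9% and higher in 3.64%. An unadjusted p under 0.05 was found for 30.8%, and 72.2% of the differences were below 0.

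The split into rises and falls depended on how the arrays were scaled. With the 75th percentile of the 205 probes well above background on all 32 arrays, as reported here, the median difference of all miRNAs tested was -0.10. The choice of these probes thus also rested on the P14.5 arrays, of which 3 lay outside the range set for the labelling spike. The median was 0.00 with the 483 probes well above background on the 16 arrays of P2.5 and P3.5, and 20 rises and 30 falls then passed. Quantile normalization gave 39 rises and 21 falls at a median of 0.04, and the deposited series values gave 27 rises and 14 falls at 0.07. Centring each array on the median of the miRNAs detected on all 16 arrays, a choice made after the data had been seen, gave 18 rises and 16 falls at a median of 0.07. Total gene signal gave 4 rises and 48 falls at a median of -0.10. The 75th percentile of all probes gave 5 rises and 2 falls at a median of 0.11. Normexp background correction gave 1 rise and 151 falls at a median of -0.24. Of the 46 miRNAs, 44 kept their direction under all 7 of these other scalings. The exceptions, miR-153-3p and miR-299b-5p, kept it in 6.

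**Figure D1:**
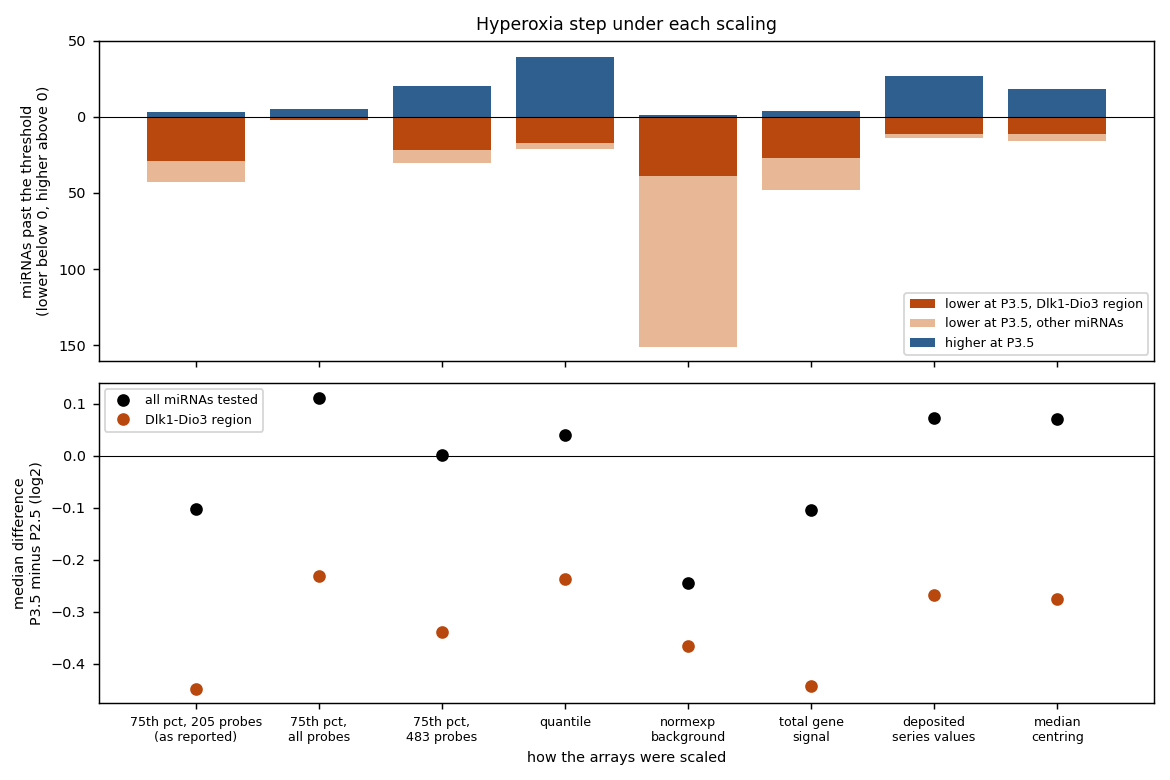
The hyperoxia step under each of 8 ways of scaling the arrays (x axis). The upper panel gives the number of miRNAs past the threshold, with rises above and falls below 0 and Dlk1-Dio3 miRNAs in the darker part of the falls. The lower panel gives the median difference, P3.5 minus P2.5, on the log2 scale. The median of the Dlk1-Dio3 miRNAs lies below 0 and below that of all miRNAs under each scaling, while the median of all miRNAs lies on either side of 0.

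The Dlk1-Dio3 region showed the broadest fall. Of its 111 miRNAs on the array 40 were tested, 29 of them fell (72.5%), none rose and 11 did not pass. The differences of all 40 were below 0, with a median of -0.45, against -0.08 for the other 262 miRNAs tested, of which 14 fell (5.34%). To leave out miRNAs that entered through 1 age alone, the count was also taken over the 38 detected on all 8 arrays, and 29 of these fell. Under the other scalings the region's median ran from -0.23 to -0.44, between 38 of 39 and all 40 differences were below 0, and between 2 and 39 members passed. The number of falls over all miRNAs, given above for each scaling, varied more widely still, so these counts are not read by themselves. Measured from the median of all miRNAs, the region's median was lower by 0.35 as reported. That gap ran from 0.12 with normexp to 0.34 under the other settings, and was 0.35 with median centring.

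miR-376b-3p changed most. Its scaled levels (log2) were 5.30, 4.93, 5.12 and 5.53 at P2.5 and 3.89, 4.29, 3.91 and 4.03 at P3.5. The highest P3.5 array thus lay below the lowest P2.5 array. The fitted difference was -1.19 ± 0.14 (SE, 4 against 4 arrays; limma adjusted p = 0.00241), a fall by 56.1%. On mm9 its probes map to chr12:110961721-110961738.

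miR-495-3p had levels of 5.11, 4.99, 4.88 and 5.83 at P2.5 and of 4.20, 4.49, 4.10 and 4.42 at P3.5. It fell by 0.90 ± 0.20 on the log2 scale (limma adjusted p = 0.0157), and its ages did not overlap. miR-154-3p had levels of 4.81, 4.53, 4.57 and 5.12 at P2.5 and of 3.82, 4.13, 3.77 and 3.89 at P3.5. It fell by 0.86 ± 0.14 (adjusted p = 0.00386). In miR-410-3p, which lies at the far end of the tested stretch, the levels were 7.05, 6.96, 6.77 and 7.37 at P2.5 and 6.21, 6.45, 6.03 and 6.30 at P3.5. This was a fall by 0.79 ± 0.14 (adjusted p = 0.00494), again with no overlap between the ages. In all, 31 of the 40 members had every P3.5 array below every P2.5 array, against 17.9% of all miRNAs tested.

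The next 4 members fell by between 0.70 and 0.75. miR-411-3p went from 5.56, 5.35, 5.08 and 5.66 to a narrow range of 4.62, 4.68, 4.66 and 4.69, and miR-379-3p, which has the same seed, fell by 0.56 ± 0.10 (limma adjusted p = 0.00495). miR-409-3p went from 4.47, 4.34, 4.35 and 4.69 to 3.64, 3.85, 3.54 and 3.81. miR-541-5p went from 4.87, 4.82, 4.81 and 5.11 to 4.06, 4.28, 4.21 and 4.05, with a difference of -0.75 ± 0.09 (adjusted p = 0.00241). It and miR-376b-3p were the members that passed under all 7 other scalings. miR-381-3p went from 4.52, 4.28, 4.18 and 4.88 to 3.63, 3.87, 3.79 and 3.76. Of its 2 probes 1 was detected, and they differed by -0.69 and -0.33. For miR-376b-3p and miR-495-3p 1 of 2 probes was detected as well. Their probes differed by -1.21 and -1.18 in miR-376b-3p and by -0.95 and -0.88 in miR-495-3p. Members of 1 family, such as those named miR-376, are alike in sequence and may share signal on the array.

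Other members fell by smaller amounts. miR-127-3p, which lies opposite the coding sequence of the retrotransposon-like gene Rtl1, had levels of 8.90, 8.70, 8.87 and 8.93 at P2.5 and of 8.23, 8.36, 8.38 and 8.22 at P3.5. Its difference was -0.55 ± 0.07 (limma adjusted p = 0.00241). miR-376a-3p fell by 0.58 ± 0.07 (adjusted p = 0.00241) from 8.09, 8.03, 7.93 and 8.13 to 7.42, 7.54, 7.54 and 7.38. miR-136-5p went from 8.50, 8.44, 8.48 and 8.51 to 8.01, 8.11, 8.06 and 8.04 (-0.43 ± 0.06; adjusted p = 0.00241).

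Falls were found along the whole tested stretch. The first tested member, miR-337-5p (-0.32), and the last, miR-410-3p (-0.79), lie 157.9 kb apart. The 9 members nearest the first end, from miR-337-5p to miR-136-3p, differed by -0.23 to -0.58. The difference of -1.19 in miR-376b-3p lay between miR-379-5p and miR-410-3p. In 10 hairpins both arms were tested. The 3p arm had the lower difference in 6 of them, as in miR-154 (-0.86 for 3p and -0.38 for 5p), miR-376b (-1.19 and -0.45) and miR-409 (-0.75 and -0.30), and the 5p arm in the rest, as in miR-136 (-0.32 for 3p and -0.43 for 5p). Among the 11 members that did not pass were miR-337-3p (-0.23 ± 0.07; limma adjusted p = 0.0559), miR-494-3p (-0.77 ± 0.39; adjusted p = 0.212) and miR-539-5p, whose levels lay near background at both ages.

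**Figure D2:**
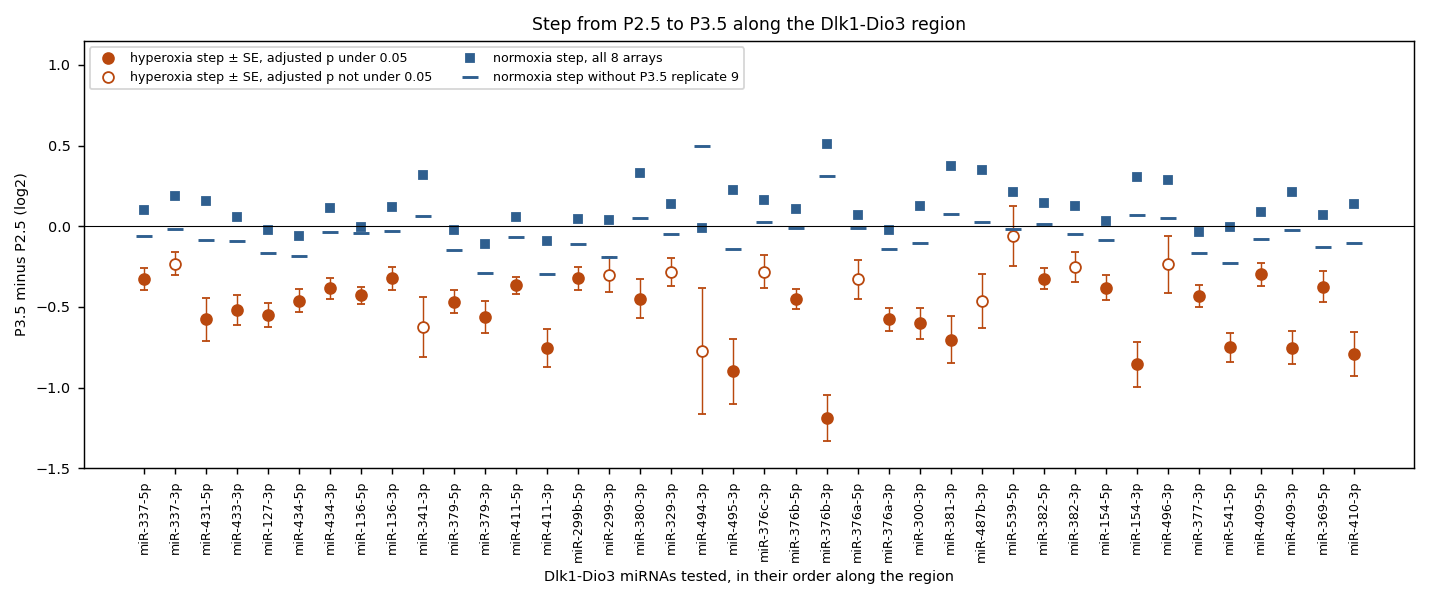
Differences, P3.5 minus P2.5 on the log2 scale (y axis), of the 40 Dlk1-Dio3 miRNAs tested in hyperoxia, in their order along the region (x axis). Circles are the hyperoxia step ± SE, filled where the adjusted p was under 0.05, squares the normoxia step and dashes the normoxia step without P3.5 replicate 9. All 40 circles lie below 0, while 10 squares and 30 dashes do.

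By array, the median level (log2) of the 38 Dlk1-Dio3 miRNAs detected on all 8 hyperoxia arrays was 5.45, 5.32, 5.18 and 5.74 at P2.5 and 4.90, 5.01, 4.94 and 4.92 at P3.5. The ages did not overlap. The spread was wider at P2.5 (5.42 ± 0.24; mean ± SD, n = 4) than at P3.5 (4.94 ± 0.05). In normoxia the median was 5.12, 4.84, 4.82 and 5.36 at P2.5 and 5.85, 4.78, 5.23 and 5.05 at P3.5, where the ages overlapped and the value of 5.85 was replicate 9. At P2.5 the hyperoxia mean exceeded the normoxia mean in 39 of the 40 members. At P3.5 it lay below the normoxia mean in 35 of 40, and in 21 of 40 without replicate 9. These counts share arrays with the hyperoxia step and are no separate evidence. The matching shares of all miRNAs tested are not given here, so the counts are not read as particular to the region.

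On the slides of the later ages, the same median was 4.29 to 4.44 at P5.5 in hyperoxia and 4.34 to 4.69 at P5.5 in normoxia. At P14.5 many members were no longer detected. Of the 8 arrays 3, normoxia replicate 28 and hyperoxia replicates 29 and 31, lay outside the range set for the labelling spike. No level is therefore read from that age. The P14.5 arrays did take part in the choice of the 205 probes used for scaling. In 39 of 40 members the P5.5 hyperoxia mean lay below the P3.5 hyperoxia mean. These levels were set side by side across slides and were not tested. The matching share of all miRNAs tested is not given here either, so this fall is not read as particular to the region.

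**Figure D3:**
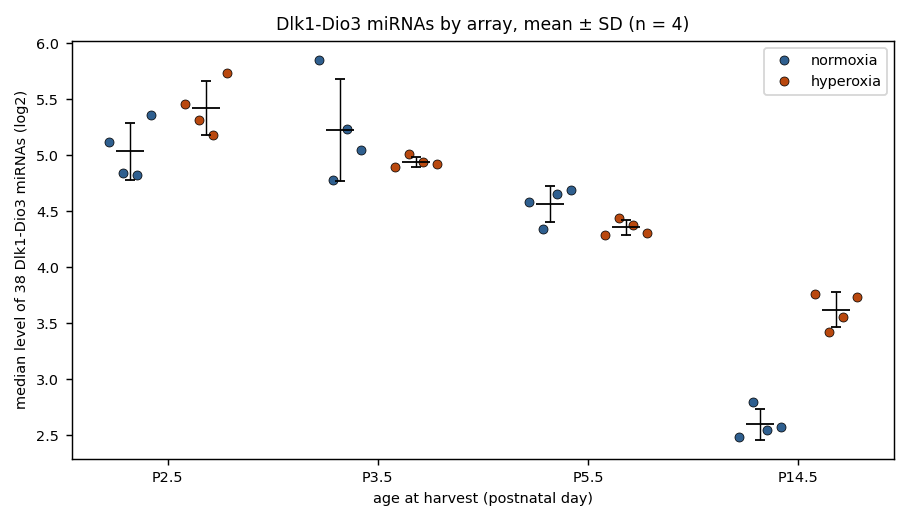
Median scaled level (log2, y axis) of 38 Dlk1-Dio3 miRNAs on each of the 32 arrays, by age (x axis) and exposure, with mean ± SD of 4 arrays. In hyperoxia the 4 arrays of P2.5 lie at 5.18 to 5.74 and those of P3.5 at 4.90 to 5.01, while in normoxia both ages overlap.

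Outside the region 14 miRNAs fell. The largest fall was in miR-3470a, whose levels were 7.49, 7.29, 7.62 and 6.98 at P2.5 and 6.57, 6.30, 6.54 and 6.43 at P3.5 (-0.89 ± 0.14; limma adjusted p = 0.00323). miR-125a-3p, the less abundant strand of the miR-125a hairpin, went from 4.10, 4.03, 4.15 and 3.84 to 3.32, 3.39, 3.36 and 3.04 (-0.75 ± 0.10; adjusted p = 0.00241). miR-706 went from 4.63, 4.37, 4.77 and 4.32 to 3.65, 3.55, 4.29 and 3.67 (-0.73 ± 0.17; adjusted p = 0.0204). In each of the 3 the ages did not overlap. Of the 4 probes of miR-706 1 was detected, and its probes differed by between -0.73 and 0. For miR-125a-3p 1 of 4 was detected as well, and its probes differed by between -0.92 and -0.38. The call of miR-706 was lost without P2.5 replicate 5 or any 1 of P3.5 replicates 13, 14 and 16 (-0.65 to -0.70; adjusted p = 0.0545 to 0.0623). miR-706 passed under 2 of the 7 other scalings, miR-125a-3p under 5 and miR-3470a under 6.

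miR-483-3p, cut from an intron of the imprinted growth factor gene Igf2, had levels of 3.87, 3.94, 3.74 and 4.19 at P2.5 and of 2.74, 3.47, 3.30 and 3.52 at P3.5. It fell by 0.68 ± 0.18 (limma adjusted p = 0.0305). This call was lost without any 1 of P2.5 replicates 5, 6 and 8 or without P3.5 replicate 15 (-0.59 to -0.70; adjusted p = 0.0553 to 0.0798), and it passed under 3 of the 7 other scalings. miR-335-3p, from an intron of Mest, fell by 0.36 ± 0.07 (adjusted p = 0.00838) and passed under 2 of the 7. Its other arm, miR-335-5p, differed by -0.04 ± 0.10 (adjusted p = 0.801). miR-335 was named after its values had been seen.

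miR-210-3p, which hypoxia induces through the hypoxia-inducible factors, had levels of 6.65, 6.50, 6.57 and 6.64 at P2.5 and of 5.68, 5.97, 6.32 and 5.81 at P3.5. All P3.5 arrays were below all P2.5 arrays, and the fall was by 0.65 ± 0.13 (limma adjusted p = 0.0102), or 36.1%. It passed under 4 of the 7 other scalings and kept its direction under all 7. In normoxia the same miRNA differed by -0.11 (adjusted p = 0.902), and the difference between the steps was -0.54 (adjusted p = 0.252).

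In the X-linked cluster around miR-322, whose leading members restrain cell division, 8 of 12 miRNAs were tested, 2 fell, against 14.2% of all miRNAs tested, and none rose. miR-503-5p went from 7.40, 7.35, 7.18 and 7.37 to 6.57, 6.88, 6.88 and 6.68 (-0.57 ± 0.09; limma adjusted p = 0.00323). miR-322-5p went from 11.91, 11.99, 12.00 and 11.99 to 11.55, 11.68, 11.50 and 11.65 (-0.38 ± 0.06; adjusted p = 0.00386). miR-351-5p, with a difference of -0.31 ± 0.09, did not pass (adjusted p = 0.0596). All 8 differences were below 0 with a median of -0.16, but 3 of 8 were with the 75th percentile of all probes and with quantile normalization, and 2 of 8 with the deposited series values. The falls of miR-503-5p and miR-322-5p kept their direction under all 7 other scalings and passed in 6 and 5 of them.

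Of the miR-15 and miR-16 family, whose members limit the cell cycle, 7 of 7 were tested and 2 fell, again against 14.2% of all miRNAs tested and the same miR-503-5p and miR-322-5p. The family's median was -0.03. miR-15a-5p (0.02) and miR-16-5p (-0.03), which have the seed of miR-322-5p, did not pass. miR-497-5p differed by 0.14 ± 0.06 (limma adjusted p = 0.174). The remaining falls outside the region were in miR-3473 (-0.62), miR-3963 (-0.48), miR-690 (-0.45), miR-3096b-3p (-0.37), miR-1196-5p (-0.37) and miR-675-3p, whose levels lay near background at P3.5, none of which passed under more than 3 of the 7 other scalings. Apart from miR-3096b-3p, each of them also lost its call without at least 3 of the 8 arrays, left out 1 at a time.

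Among the miRNAs that rose, miR-34a-5p, a target of the p53 tumour suppressor that restrains the cell cycle, had levels of 8.90, 9.00, 9.03 and 8.96 at P2.5 and of 9.21, 9.56, 9.33 and 9.23 at P3.5. All 4 arrays of P3.5 were above all 4 of P2.5. The rise was by 0.36 ± 0.09, or 28.5% (limma adjusted p = 0.0204). With the ages wholly apart, a two-sided exact permutation test on its 8 array values can only give its smallest p, 0.0286. The test gave this p under each scaling, so it restates the separation and adds no support. The limma call was lost without P2.5 replicate 5 (0.34; adjusted p = 0.0623) and without P2.5 replicate 8 (0.36; adjusted p = 0.0562). In normoxia its levels were 8.80, 8.94, 8.87 and 8.82 at P2.5 and 8.67, 8.80, 8.90 and 8.88 at P3.5, with a difference of -0.05 (adjusted p = 0.902), or 0.00 without replicate 9. The steps differed by 0.41, which did not pass (adjusted p = 0.119).

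The other members of the miR-34 family did not pass in the hyperoxia step. miR-34b-5p, with the seed of miR-34a-5p, differed by 0.31 ± 0.10 (limma adjusted p = 0.0817), with levels of 8.23, 8.32, 8.24 and 8.02 at P2.5 and of 8.36, 8.66, 8.35 and 8.66 at P3.5. miR-34c-5p differed by 0.20 (adjusted p = 0.262). miR-34b-3p and miR-34c-3p were well above background on 3 of the 4 arrays of P2.5 and near background there, and no difference is given for them. In normoxia miR-34b-5p differed by 0.35 (0.23 without replicate 9) and miR-34c-5p by 0.18 (0.09 without it), and neither passed. miR-34a-3p was detected on 0 of 32 arrays. miR-449a-5p of ciliated cells, with the same seed as miR-34a-5p, differed by 0.00 ± 0.13 in the hyperoxia step.

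miR-126-5p, from an intron of the endothelial gene Egfl7, had levels of 6.94, 7.19, 7.15 and 7.13 at P2.5 and of 7.48, 7.32, 7.33 and 7.45 at P3.5. It rose by 0.29 ± 0.08 (limma adjusted p = 0.0309). This call was lost with the 75th percentile of all probes (0.51; adjusted p = 0.0651) and with normexp (0.13; adjusted p = 0.14). It was also lost without any 1 of P2.5 replicates 5 and 8 and P3.5 replicates 13 and 16 (0.24 to 0.30; adjusted p = 0.0641 to 0.102). The other arm, miR-126-3p, differed by 0.08 ± 0.10 (adjusted p = 0.63). miR-153-3p was well above background on 4 of 4 arrays at P3.5 and on 0 of 4 at P2.5, at mean levels of 2.63 and 2.06. Neither a fold change nor a test is read from it, because it was tested only through its detection at P3.5 and both means lay below the dimmest signals that were well above background. Normexp turned its direction, and of its 2 probes 1 stayed at the floor in both groups.

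**Figure D4:**
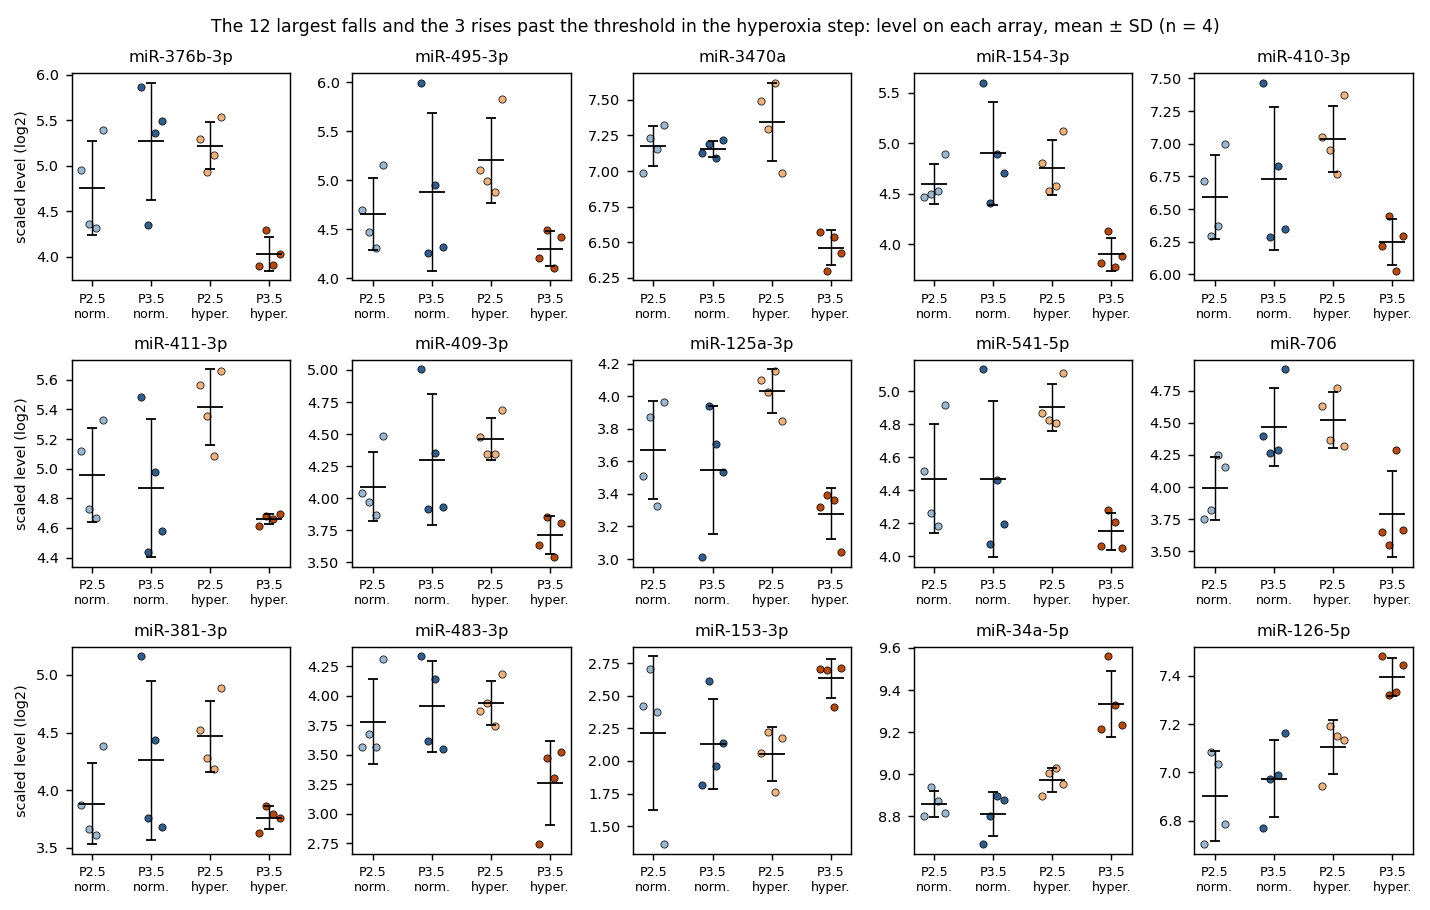
Scaled level (log2, y axes, each panel on its own range) of the 12 miRNAs with the largest falls and the 3 counted as higher in the hyperoxia step, on each of the 16 arrays of P2.5 and P3.5, by group (x axes). Points are arrays and bars mean ± SD of 4 arrays. In miR-376b-3p the P3.5 hyperoxia arrays lie at 3.89 to 4.29 and the P2.5 hyperoxia arrays at 4.93 to 5.53.

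In the normoxia step 0 of 290 miRNAs passed limma's adjusted threshold, 19 had an unadjusted p under 0.05 (6.55%), and the median difference was -0.01. The differences of 52.1% were below 0, and the ages lay apart with P3.5 lower for 4.48% and higher for 2.07%. The methods' t-test also gave 0. The smallest p-values belonged to miR-135b-5p (-0.66; adjusted p = 0.186), miR-709 (0.54; adjusted p = 0.186) and miR-129-1-3p (-0.33; adjusted p = 0.41). In the hyperoxia step these differed by -0.19, 0.46 and -0.24, none past the threshold. The 37 Dlk1-Dio3 miRNAs tested in normoxia had a median difference of 0.10, and of -0.07 without replicate 9, on which 35 of the 37 had their highest normoxia level. On slide 1, which held replicate 9, the median was 0.41, and on slide 2 it was -0.23. In hyperoxia the region's median was -0.46 on slide 1 and -0.45 on slide 2.

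The test of the difference between the steps, hyperoxia minus normoxia, gave 1 of 303 miRNAs (0.33%), and 50 at an unadjusted p under 0.05 (16.5%). The miRNA was miR-3470a, which differed by -0.89 in hyperoxia and by -0.02 in normoxia (-0.01 without replicate 9), at levels of 6.99, 7.23, 7.16 and 7.32 at P2.5 and of 7.12, 7.19, 7.09 and 7.22 at P3.5 in normoxia. The steps differed by -0.87 (limma adjusted p = 0.0341). This call was lost under all 7 other scalings. It was also lost without any 1 of 11 of the 16 arrays, normoxia replicate 9 among them (-0.88; adjusted p = 0.0657), at differences of -0.78 to -0.89. Next in order came miR-706 (-1.20; adjusted p = 0.0595), miR-376b-3p (-1.70; adjusted p = 0.0942), miR-154-3p (-1.16; adjusted p = 0.0975) and miR-136-5p (-0.42; adjusted p = 0.0975).

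Of the 40 Dlk1-Dio3 miRNAs in the difference between the steps, 0 passed limma's adjusted threshold and 28 had an unadjusted p under 0.05. All 40 differences were below 0, as were 64.4% of all tested. Their median was -0.48, and -0.34 without normoxia replicate 9, against -0.04 for the other 263 miRNAs. That the region fell in hyperoxia and did not pass in normoxia is therefore not shown to be a difference between the exposures for any single member as reported here. With array weights 28 of all miRNAs tested passed, 15 of them members of the region. Without P2.5 normoxia replicate 4, 8 passed, 4 of them members. Without P3.5 normoxia replicate 10, 4 passed, 2 of them members.

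**Figure D5:**
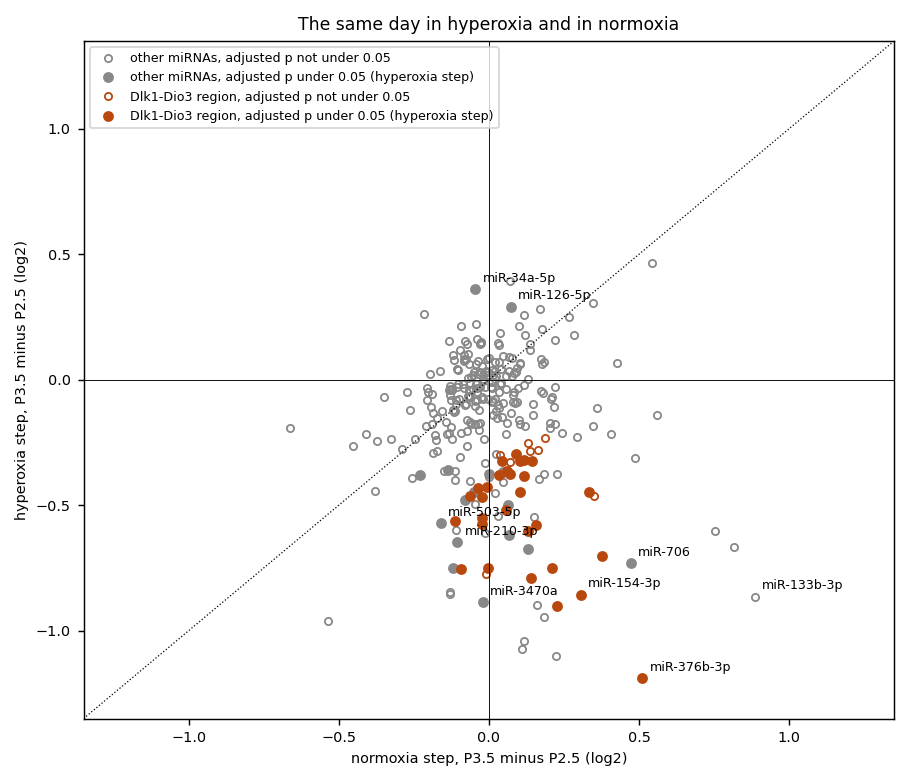
Difference from P2.5 to P3.5 in hyperoxia (y axis, log2) against that in normoxia (x axis, log2) for the miRNAs tested in both steps, with Dlk1-Dio3 miRNAs in colour, points past the threshold in hyperoxia filled and a dotted line of equal differences. miR-376b-3p lies at -1.19 in hyperoxia and 0.51 in normoxia (0.31 without P3.5 replicate 9), and miR-34a-5p at 0.36 and -0.05.

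miRNAs of red cells and of muscle differed widely between pups of 1 group. All 4 erythroid miRNAs tested had differences below 0 in the hyperoxia step (median -0.99) and none passed. miR-451, the main miRNA of red cells, had levels of 11.40, 10.69, 11.81 and 12.51 at P2.5 and of 11.07, 9.80, 11.14 and 10.62 at P3.5 (-0.95 ± 0.41; limma adjusted p = 0.16), and miR-144-3p, from the same transcript, differed by -1.04 ± 0.40 (adjusted p = 0.116). The probe set shared by miR-3107-5p and miR-486, the latter made by red cells and muscle, differed by -1.07 ± 0.37 (adjusted p = 0.0817). In each of the 3 the ages overlapped.

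Of the 7 muscle and heart miRNAs 4 were tested and none passed, with a median of -0.64. miR-1a-3p had levels of 8.91, 9.33, 6.93 and 8.78 at P2.5 and of 7.13, 8.74, 7.54 and 8.14 at P3.5 (-0.60 ± 0.53; limma adjusted p = 0.499). miR-133b-3p differed by -0.86 ± 0.55 (adjusted p = 0.328) and miR-133a-3p by -0.67 ± 0.51 (adjusted p = 0.424). Without P2.5 hyperoxia replicate 7 the differences were -1.42 for miR-133b-3p, -1.16 for miR-133a-3p and -1.12 for miR-1a-3p. The part of red cell and muscle RNA in the other results was not tested. Of markers of other tissues, miR-124-3p and miR-9-5p of the nervous system were detected on none of the 8 arrays. The liver miRNA miR-122-5p was at levels of 1.20 to 3.29 at P2.5 and of 1.98 to 5.99 at P3.5, and was not tested.

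The markers of lung cell types were mostly detected on all 8 arrays, and their summed levels (log2 of the sum of unlogged levels) overlapped between the ages. Such a sum is set mainly by the brightest marker. In the endothelial pair this was miR-126-3p, with a P2.5 hyperoxia mean of 12.68 against 7.11 for miR-126-5p. That sum therefore does not show the rise of miR-126-5p given above, whose ages did not overlap. The summed level of 2 endothelial markers was 12.59 to 12.87 at P2.5 and 12.56 to 12.91 at P3.5, and that of 5 epithelial markers 11.75 to 11.96 and 11.60 to 11.83. The 3 mesenchymal markers summed to 11.90 to 12.09 and 11.81 to 12.01, and the 4 blood and immune markers to 9.61 to 10.05 and 9.67 to 10.14. Of the 6 ciliated cell markers 3 were detected on all 8 arrays, and their sum was 10.32 to 10.72 at P2.5 and 10.46 to 10.82 at P3.5.

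The remaining lists held no miRNA past the threshold as reported here. All 5 miR-200 family miRNAs, which keep epithelial cells in their state, were tested, with a median of -0.17 in hyperoxia and -0.19 in normoxia (-0.12 without replicate 9). Their hyperoxia median was 0.05 with the 75th percentile of all probes and 0.01 with median centring. With total gene signal 2 fell, under a setting that gave more falls over all miRNAs than the scaling reported here. miR-200c-3p differed by -0.18 ± 0.07 (limma adjusted p = 0.117), miR-141-3p by -0.18 ± 0.08 (adjusted p = 0.149) and miR-429-3p by -0.17 ± 0.09 (adjusted p = 0.246). The 3 miR-29 miRNAs, which act on collagen and other matrix messengers, had a median of 0.16 in hyperoxia and 0.22 in normoxia, with miR-29c-3p at 0.18, miR-29a-3p at 0.16 and miR-29b-3p at 0.14.

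The 10 tested of the 13 listed miR-17 cluster miRNAs, which favour proliferation, had a median of -0.11, with miR-25-3p at -0.18, miR-18a-5p at -0.17 and miR-19a-3p at -0.21. The 9 let-7 miRNAs, which rise as tissues mature, had a median of 0.03, and let-7g-5p, let-7f-5p and let-7d-5p differed by 0.09, 0.07 and 0.05. The medians of the 5 miR-30 and of the 5 miR-23, miR-27 and miR-24 miRNAs were 0.03 and 0.06. In these lists miR-30b-5p differed by 0.15 ± 0.07, miR-30e-5p by -0.08, miR-30d-5p by 0.04, miR-23a-3p by 0.14 ± 0.06, miR-24-3p by 0.09 and miR-27b-3p by -0.07.

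Of the blood and immune list 6 of 7 miRNAs were tested, at a median of 0.12, with miR-142-5p at 0.18, miR-223-3p at 0.16 and miR-142-3p at 0.14. The smooth muscle miRNAs miR-145-5p and miR-143-3p differed by -0.18 and -0.13. The 5 mesenchymal miRNAs had a median of -0.03, with miR-199a-5p at -0.09 and miR-214-3p at -0.05. miR-21-5p differed by 0.07 ± 0.07 (limma adjusted p = 0.531). Of the 62 miRNAs of the repeat cluster in Sfmbt2 and its relatives 13 were tested. All 13 differences were below 0, with a median of -0.36, and none passed, with miR-466b-3p at -0.36 ± 0.12 (adjusted p = 0.073), miR-669p-3p at -0.61 and miR-467f at -0.49. Without P2.5 replicate 7 the latter pair were at -0.37 and -0.27. With the 75th percentile of all probes 7 of these 13 were below 0. With normexp 12 fell, but that setting gave the most falls over all miRNAs tested, as given above. The 12 are therefore not read as particular to the cluster.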

How the data were processed

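The deposited scanner output gave each spot's intensity (1 colour, Cy3) as read by Agilent Feature Extraction 10.7.3.1, with a fitted background subtracted by the authors' scanner software and no scaling between arrays. Per the file headers they also held other values, 0 or 1 flags per spot, and probe positions on mm9. The series values that the authors deposited were log2 signals per miRNA. How these were made is not given in the sources used here.

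Arrays were brought to a common 75th percentile (1166), taken over the 205 probes well above background on all 32. The 1 to 4 probes of a miRNA were averaged, values under 2.30 scaled units were raised to that floor, and log2 was taken. A miRNA was detected where at least 1 probe was well above background on over 0.5 of its spots. Fits used limma 3.58.1 (lmFit and eBayes, two-sided, R 4.3.3) on the 8 arrays of a step, or on 16 for the difference between the steps, with Benjamini-Hochberg adjustment at 0.05. In simulated arrays of the hyperoxia step (302 miRNAs), 25 of 30 changes of 0.5 and 26 of 30 of 1 (log2) were recovered. Of the 242 simulated without a change, 2 were called. Differences past the threshold in the data went down to 0.29, and recovery at sizes under 0.5 was not simulated. The number of arrays limits the precision.

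The members and the 21 miRNA lists were chosen with earlier results of these data known. Named miRNAs were up to 12 rises (only 3 existed) and 12 falls of greatest size past the threshold, the 3 smallest p in normoxia, the 5 smallest p for the difference, the miR-34 family, and from each list up to 3 members of smallest p. Other miRNAs were added after their values were seen. The alternatives were other scalings, background, probe and floor choices, detection filters, slide as a block, each slide alone, wider fits, the methods' t-test, array weights and leaving out each replicate. Median centring was added later. Plots used Python 3.11.15, pandas 2.3.3, numpy 2.4.6 and matplotlib 3.10.9.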

Additional observations from a re-analysis of the deposited data

Results flagged for a closer look

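Of 268 groups of 4 arrays examined over the named miRNAs, 21 held an array far from the other 3 of its group by Dixon's criterion, which chance meets in about 1 in 20 groups. All values are scaled levels (log2).

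Hyperoxia P3.5 replicate 15 was the array set apart in miR-153-3p (2.41), miR-706 (4.29), miR-709 (9.64), let-7f-5p (12.21), miR-29c-3p (6.40) and miR-23a-3p (11.19). Of the other P3.5 hyperoxia arrays, replicate 13 was set apart in miR-34b-3p (3.37) and replicate 14 in miR-223-3p (8.70).

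In hyperoxia at P2.5, replicate 5 was set apart in let-7g-5p (10.60), let-7d-5p (11.17) and miR-322-5p (11.91), replicate 6 in miR-199a-5p (9.91), and replicate 7 in the muscle miRNA miR-133b-3p (6.44).

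Normoxia P3.5 replicate 9 was set apart in miR-34b-5p (8.83), miR-34c-3p (3.56), miR-449a-5p (10.14), miR-223-3p (8.55) and miR-21-5p (12.03). In normoxia at P2.5, replicate 4 was set apart in miR-154-3p (4.90) and miR-483-3p (4.31), and replicate 3 in miR-129-1-3p (3.59).

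miR-3470a had a different step in hyperoxia than in normoxia (-0.87; limma adjusted p = 0.0341). This call was lost under all 7 other scalings and without any 1 of 11 of the 16 arrays.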

How the results depend on the processing

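The hyperoxia step, with 46 miRNAs past the threshold, gave 7 with the 75th percentile of all probes, 152 with normexp, 30 with no detection filter (a fit in which most variances were 0), 8 in a fit of all 32 arrays, 27 in a fit of the 16 arrays and 24 by the methods' t-test. Slide 1 alone gave 1 and slide 2 alone 0 by limma, with 55 and 78 at an unadjusted p under 0.05. Leaving out 1 replicate gave 34 to 61. The normoxia step gave 0 under every alternative run.

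The difference between the steps, with 1 miRNA, gave 0 under the other scalings, with no detection filter, on either slide alone and in the fit of all 32 arrays, 2 with detection on every array and 28 with array weights. Leaving out 1 replicate gave 0 to 8. It gave 8 without P2.5 normoxia replicate 4, 4 without P3.5 normoxia replicate 10 and 2 without P3.5 hyperoxia replicate 15.

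For miR-34a-5p the rise of 0.36 no longer passed with total gene signal (0.36), no detection filter (0.36), slide 1 only (0.31), slide 2 only (0.42), all 32 arrays (0.36) or the methods' t-test (0.36). Leaving out 1 replicate gave 0.29 to 0.40. Direction turned for miR-153-3p with normexp (-0.24) and for miR-126-3p on slide 1 (-0.0041). The causes were not tested.

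No paired analysis was possible because each replicate number belongs to a single array. Slide row and age cannot be told apart. miRNAs near background, such as miR-153-3p, are limited by signal.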
